A study of Mus musculus with 4 samples.

Results

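Interferon-stimulated genes are described here in the livers of mice given aristolochic acid I (AAI), a nephrotoxic compound of Aristolochia plants. The 35 genes were chosen by name as well-known targets of interferon, and their probes were found by the gene name in the array files. Earlier results of these data were known when the 35 genes were chosen. They make up 35 of the 37021 gene names on the array and 59 of its 56605 non-control probes. For 19 of them the array carries a further probe. The brightest probe stands for a gene, and all 35 brightest probes were well above background on all 4 arrays.

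RNA was measured on 4 one-colour arrays, 1 for each group. All mice were wild-type C57BL/6 mice, 6 weeks old. Females received AAI at 5 mg/kg/day and males at 2 mg/kg/day, by intraperitoneal injection on 5 days a week for 3 weeks, and corn oil, the vehicle, was given to the control group of each sex. Each array holds RNA pooled from 5 mice, so that no spread between mice was measured and no test between groups could be made. Sex and dose cannot be told apart in the comparison of the AAI groups. A log2 ratio is the log2 signal of AAI-treated minus that of the control group of that sex, after quantile normalization of the arrays, and a log2 ratio of 1 is a 2-fold difference. Error between arrays was not measured, as each group has 1 array. The only spread given is that between probes of 1 gene on the same arrays. Between such probes, log2 ratios had an SD whose median over genes was 0.25 in females and 0.24 in males.

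The pools also differed in other tissues' transcripts. All 10 skeletal muscle markers were at least 2-fold higher with AAI in both sexes. The median log2 ratio was 6.14 in females, over the 9 above background on both arrays, and 6.04 in males. In males, 6 of 8 adrenal gland markers and 4 of 6 fat markers were at least 2-fold higher too. The control pools also differed. In corn oil-treated males over females, 9 of 10 muscle markers were at least 2-fold higher (median 3.18, over 9 above background on both arrays). So were 5 of 8 adrenal gland markers and 2 of 6 fat markers. The 8 hepatocyte markers, among them Alb and Ttr, were above background on all 4 arrays. Their medians were 0.02 in females and -0.09 in males. Single markers ran from -0.42 to 0.75 in females and from -0.43 to 0.57 in males. Alb had the same log2 signal, 19.12, in both female groups and in corn oil-treated males. Quantile normalization sets such values by rank, so Alb says little about the share of hepatocytes. The array of AAI-treated females differed from the others in its scanner processing, since no multiplicative trend correction had changed its signals. The part of the other tissues' transcripts in the values of the members was not tested. Without the trend correction on any array, 10 of the 35 members were at least 2-fold lower in females, against 11 with it, and their median log2 ratio was -0.77, against -0.80.

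Interferons are secreted proteins that cells release on sensing viral nucleic acid or other danger. Type I interferons bind the receptor chains IFNAR1 and IFNAR2, whose Janus kinases activate the complex ISGF3, with STAT2 and IRF9 among its subunits, and this complex binds the interferon-stimulated response element (ISRE) in promoters. Interferon gamma acts through another receptor and another promoter element, the gamma-activated site (GAS). In the liver, hepatocytes, Kupffer cells and other immune cells can all express the induced genes.

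The promoters of 5 members are shown because they carry the ISRE core and belong to members with low (Ifit1, Rsad2, Isg15 and Oas1a) and high (Oas3) log2 ratios in females. Each line gives the 150 bases before the transcription start from RefSeq on assembly GRCm38.p6, 5′ to 3′ along the gene, with the ISRE core (GAAA, any 2 bases and GAAA, or the reverse complement) in capitals.
Ifit1, chr19:34640739-34640888, strand +: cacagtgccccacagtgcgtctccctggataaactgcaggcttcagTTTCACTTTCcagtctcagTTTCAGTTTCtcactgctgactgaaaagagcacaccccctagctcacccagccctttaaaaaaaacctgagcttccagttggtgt
Rsad2, chr12:26456453-26456602, strand −: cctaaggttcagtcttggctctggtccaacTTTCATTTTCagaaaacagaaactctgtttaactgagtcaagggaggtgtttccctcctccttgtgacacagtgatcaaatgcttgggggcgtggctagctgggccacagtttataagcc
Isg15, chr4:156200819-156200968, strand −: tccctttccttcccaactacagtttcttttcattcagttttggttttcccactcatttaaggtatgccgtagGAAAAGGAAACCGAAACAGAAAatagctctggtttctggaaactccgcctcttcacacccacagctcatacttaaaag
Oas1a, chr5:120907526-120907675, strand −: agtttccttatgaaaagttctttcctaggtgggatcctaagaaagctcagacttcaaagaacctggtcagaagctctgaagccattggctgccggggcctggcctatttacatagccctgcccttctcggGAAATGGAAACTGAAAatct
Oas3, chr5:120777660-120777809, strand −: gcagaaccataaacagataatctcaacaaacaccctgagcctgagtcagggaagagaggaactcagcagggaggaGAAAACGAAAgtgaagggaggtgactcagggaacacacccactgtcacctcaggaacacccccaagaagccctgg

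Of the 35 members, 26 had a promoter entry, which spans 250 bases before and 50 bases after a transcription start. The ISRE core, read on both strands, was found for 14 of these 26 genes (53.8%), against 3.99% of the 27025 genes with an entry. The GAS core (TTCNNNGAA, the same on both strands) was found for 6 of 26 (23.1%), against 9.55% of genes. In the Bst2 promoter a GAS core overlapped an ISRE core. Isg15 held 3 overlapping ISRE cores, and Ifit1 and Ifit3 held 2 each that lay apart. Oas2, Mx1, Mx2, Zbp1, Usp18, Dhx58, Parp14, Gbp6 and Iigp1 had no entry. The log2 ratio in females did not separate the members by this motif, with a median of -0.67 for the 14 with an ISRE core, of which 6 were at least 2-fold lower, and of -0.82 for the 12 without, of which 4 were.

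**Figure D1:**
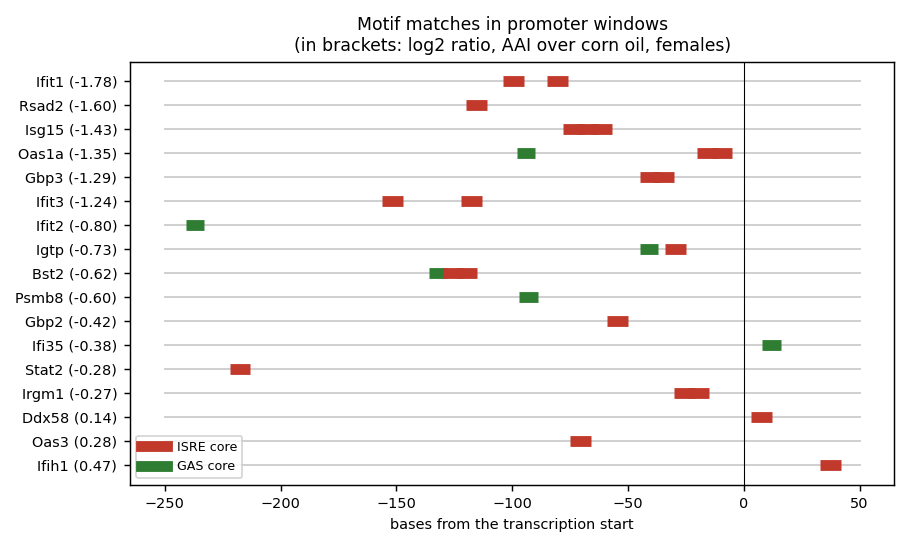
Positions of the ISRE core and the GAS core in the promoter windows of the 17 members with a match (x axis, bases from the transcription start; windows run from 250 bases before to 50 after it, and where a gene has more than 1 window the matches share its line). Genes are ordered by their log2 ratio in females, given in brackets, and matches of the ISRE core are seen from the lowest, Ifit1, to genes with ratios above 0, Ddx58, Oas3 and Ifih1.

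In AAI-treated females, 11 of the 35 members were at least 2-fold lower than in corn oil-treated females, against 3.09% of the 31682 genes in the comparison, and 0 were at least 2-fold higher, against 1.37%. A log2 ratio below 0 was seen in 31 members (46.5% of all genes above background on both arrays), and 30 were lower by more than the SD between probes (25.1% of those genes). The median log2 ratio was -0.80, against 0.04 over all genes. The 11 were Ifit1, Rsad2, Oasl2, Isg15, Oas1a, Gbp6, Gbp3, Ifi44, Ifit3, Irf7 and Oasl1. Just inside the threshold was Oasl1 at -1.04, and just outside it were Cmpk2 and Usp18, both at -0.99. By the brightest probe, 3 members were higher by more than the SD between probes, Ifih1, Oas3 and Mx1 (29.0% of all genes), and the further probe of Mx1 was lower.

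In AAI-treated males, 2 of 35 members were at least 2-fold lower, Gbp6 and Iigp1, against 4.59% of the 30539 genes in the comparison, and 0 were at least 2-fold higher, against 3.51%. A log2 ratio below 0 was seen in 27 members (48.1% of all genes), and 21 were lower by more than the SD between probes (26.7%). The median was -0.36, against 0.02 over all genes. The nearest member outside the threshold was Rsad2 at -0.87. Only Psmb8, at 0.25, was higher by more than the SD (28.3% of all genes).

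**Figure D2:**
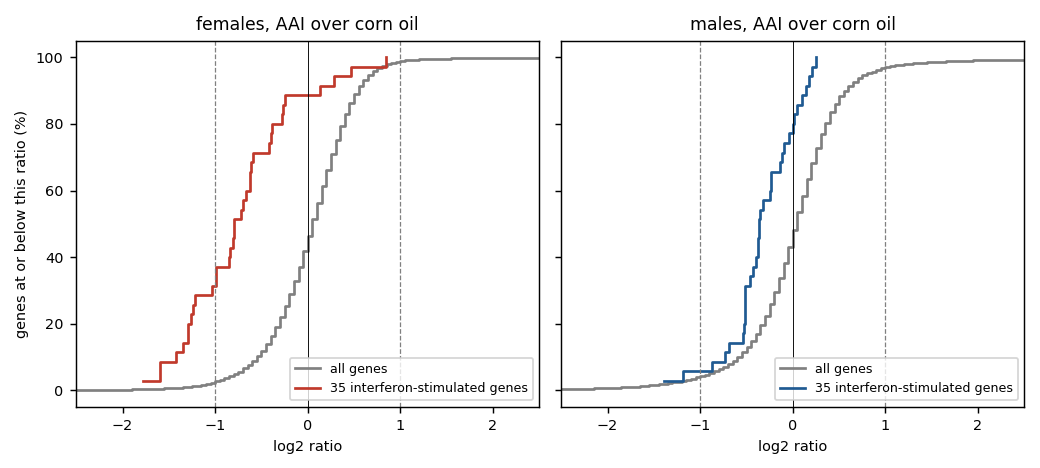
Cumulative share of genes (y axis, %) at or below each log2 ratio of AAI over corn oil (x axis) for the 35 interferon-stimulated genes and for all genes above background on both arrays, in females (left) and males (right); dashed lines mark 2-fold. The curve of the members lies to the left of the curve of all genes over most of its length in both sexes, with medians of -0.80 against 0.04 in females and -0.36 against 0.02 in males.

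Kupffer cell and macrophage markers were lower alongside. Of 8 markers on the array, 6 were at least 2-fold lower in females (3.09% of all genes) and 2 in males (4.59%). Their medians were -1.39 and -0.90. Their summed signal was 40009.5 in AAI-treated and 84197 in corn oil-treated females, and 46321 and 77658 in the males. Clec4f, the defining marker of Kupffer cells, had ratios of -1.41 (females) and -0.89 (males), and Marco, a scavenger receptor of macrophages, had 0.05 and 0.09. None of the markers was at background. The medians were -0.53 and -0.34 for T and NK cell markers, -0.54 and -0.31 for B cell markers, and 0.18 and -0.42 for dendritic cell markers, a list that also holds the member Bst2. Neutrophil markers had 0.16 and 0.82, endothelial markers -0.34 and -0.11, and stellate cell markers 0.35 and 0.84. Single neutrophil markers in males ran from -0.66 (Mpo) to 1.77 (Retnlg). The control pools already differed for this list, with a median of -1.55 in corn oil-treated males over females. The 6 stellate cell markers did not move together. Des had the highest ratios, 1.65 and 4.55, while Lrat (-0.30 and -0.58) and Reln (-0.20 and -0.97) were below 0 and the others above it. Skeletal muscle markers were higher in the same AAI pools. The part of muscle transcripts in the ratios of Des and the other stellate cell markers was not tested. Ncr1 of the NK cells and Xcr1 of the dendritic cells were not well above background on any array. The part of these cells in the interferon-stimulated genes was not tested, and in pooled tissue fewer cells of a type and less RNA per cell cannot be told apart.

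The IFIT proteins bind viral RNA that lacks the host's cap modification. All 3 members lie on chromosome 19. Ifit1 (NM_008331, probe at 34723827 to 34723886 of genome build mm9) had log2 signals of 6.79 in AAI-treated and 8.56 in corn oil-treated females, and of 7.55 and 7.90 in the males. AAI-treated females were the lowest of the 4 groups and corn oil-treated females the highest. The log2 ratio was -1.78 in females, a 3.42-fold lower signal with 0.384% of all genes lower still, and -0.36 in males. With normexp background correction the ratio in females was -1.18. Ifit3 (NM_010501) had 9.11 and 10.35 in the females and 9.65 and 10.08 in the males, in the same order of groups, with log2 ratios of -1.24 and -0.43. Ifit2 (NM_008332) had 6.36 and 7.17 in the females and 6.47 and 7.20 in the males. Here the sexes were alike, at -0.80 and -0.74, and the treated groups were the 2 lowest.

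The OAS family comprises the 2′-5′ oligoadenylate synthetases, which activate the ribonuclease RNase L on binding double-stranded RNA, and the OAS-like proteins. Oasl2 (NM_011854, mm9 chromosome 5, 115362168 to 115362227) had log2 signals of 7.19 in AAI-treated and 8.79 in corn oil-treated females, and of 8.41 and 8.20 in the males. Its ratios were -1.60 (females) and 0.21 (males), the latter within the SD between probes. With normexp the female ratio of Oasl2 was -1.13. Oas1a (NM_145211, chromosome 5, 121346735 to 121346794) had 9.78 and 11.13 in the females and 10.17 and 10.70 in the males, or log2 ratios of -1.35 and -0.53. Both treated groups were below both control groups. Oasl1 (NM_145209), whose product restrains translation of Irf7, had 10.08 and 11.12 in the females and 9.81 and 10.35 in the males, or -1.04 and -0.54. AAI-treated males were the lowest group for Oasl1, and its further probe was left out for an outlier mark on an array. Oas2 was alike in both sexes, at -0.63 and -0.52. Its further probe, above background on 3 of 4 arrays, had -0.21 in females and -0.10 as a bound in males. Oas3 went the other way in females, with log2 signals of 6.32 and 6.04, a log2 ratio of 0.28 that is close to the SD between probes, and it was 5.57 and 5.56 in the males.

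Of the other antiviral effectors, Rsad2, which encodes viperin, an enzyme that makes a chain-terminating nucleotide, showed the lowest ratio. Rsad2 (NM_021384, mm9 chromosome 12, 27127859 to 27127918) had log2 signals of 7.13 in AAI-treated and 8.73 in corn oil-treated females, and of 7.55 and 8.43 in the males. Both treated groups were below both control groups. The log2 ratios were -1.60 and -0.87, and a further probe gave -1.58 and -0.73. With normexp the female ratio of Rsad2 was -1.15. Cmpk2, its neighbour on chromosome 12, a mitochondrial nucleotide kinase, had 7.39 and 8.38 in the females and 7.36 and 8.05 in the males, or log2 ratios of -0.99 and -0.69. Bst2, or tetherin, which holds budding virus at the cell surface, had -0.62 and -0.51. Zbp1, a sensor of Z-form nucleic acid, had -0.63 and 0.17, and a further probe had -1.90 and -0.15. Mx2, a dynamin-like GTPase, had -0.25 and -0.04, and a further probe had 0.11 and -0.59.

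The value of Mx1, the related GTPase, depended on the probe. Its brightest probe (NM_010846, mm9 chromosome 16, 97668644 to 97668668) had log2 signals of 7.32 in AAI-treated and 6.47 in corn oil-treated females, and of 6.38 and 6.62 in the males, with log2 ratios of 0.85 and -0.24. The further probe, which begins at the same position, was above background on 2 of 4 arrays and was lower with AAI, with ratios that as bounds were -1.92 in females and -1.19 in males. The direction of Mx1 in females therefore depended on the probe.

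ISG15 is a ubiquitin-like protein that interferon induces and that is attached to other proteins. Isg15 (NM_015783, mm9 chromosome 4, 155573649 to 155573708) had log2 signals of 10.50 in AAI-treated and 11.93 in corn oil-treated females, and of 10.98 and 11.50 in the males. The log2 ratio was -1.43 in females, with 0.761% of all genes lower still, and -0.52 in males. Usp18, the protease that removes ISG15 and damps the interferon receptor, had 8.64 and 9.63 in the females and 8.89 and 9.25 in the males, or -0.99 and -0.36. Herc6, the mouse ligase for ISG15, had -0.67 and -0.37, but under other settings its ratios came as near to 0 as -0.12 and -0.09. For Isg15 and Usp18, as for Ifit1 and Ifit3, the 4 groups stood in 1 order, from AAI-treated females through AAI-treated and corn oil-treated males to corn oil-treated females.

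The 3 sensors of viral RNA went different ways. Ddx58, which encodes RIG-I, had log2 signals of 10.38 and 10.25 in the females and 9.89 and 9.85 in the males, and its ratios of 0.14 and 0.04 were within the SD between probes. A further probe had 0.04 and -0.42. Ifih1, which encodes MDA5, had 10.28 and 9.81 in the females and 9.69 and 10.07 in the males, or 0.47 and -0.38, opposite in the sexes. Its further probe had 0.30 and -0.10. Dhx58, which encodes LGP2, had 7.73 and 8.58 in the females and 7.75 and 7.87 in the males, or -0.85 and -0.12. Corn oil-treated females thus stood above the other 3 groups for Dhx58. Its further probe, above background on 2 of 4 arrays, gave 0.58 as a bound in females.

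Among the members of signalling and transcription, Irf7, which encodes the factor that amplifies the production of interferon alpha, had the lowest ratio. Irf7 (NM_016850, mm9 chromosome 7, 148449104 to 148449163) had log2 signals of 12.02 in AAI-treated and 13.23 in corn oil-treated females, and of 12.61 and 12.99 in the males, or -1.22 and -0.38. A further probe had -0.71 and -0.03, and the average of the probes had -0.96 and -0.20. Stat2, the ISGF3 subunit, had ratios of -0.28 and -0.23, and a further probe of -0.73 and 0.01. Ifi35 had -0.38 and -0.25, and Parp14, a mono-ADP-ribosyltransferase, had -0.70 and -0.46.

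The guanylate-binding proteins and the immunity-related GTPases (IRG) attack the vacuoles of intracellular pathogens and respond chiefly to interferon gamma. Gbp6 (NM_194336, mm9 chromosome 5, 105700081 to 105700140) was low in both treated groups, with log2 signals of 5.82 in AAI-treated and 7.11 in corn oil-treated females, and of 5.89 and 7.28 in the males. The log2 ratios were -1.29 and -1.39, and with normexp they were -0.67 and -0.81. Gbp3 (NM_018734) had 8.56 and 9.85 in the females and 9.49 and 9.63 in the males, or -1.29 and -0.14. Only the treated female pool stood apart for Gbp3. Iigp1 (NM_021792) had 14.30 and 15.09 in the females and 14.54 and 15.73 in the males, or -0.80 and -1.19, while its further probe had 0.46 and 0.27. The direction of Iigp1 therefore depended on the probe. Igtp had -0.73 and 0.10, Gbp2 had -0.42 and 0.14, and Irgm1 had -0.27 and -0.32.

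The antigen-processing members Psmb8 and Psmb9, subunits of the immunoproteasome, and Tap1, a peptide transporter, had ratios below 0 in females, short of 2-fold. Psmb8 had log2 signals of 11.11 and 11.70 in the females and 11.32 and 11.07 in the males, or -0.60 and 0.25. Psmb9 had -0.40 and 0.01, with a further probe at 0.29 and -0.43. Tap1 had -0.80 and -0.10, with a further probe at -1.11 and -0.37. Of the last members, Ifi44 had 7.07 and 8.33 in the females and 7.41 and 7.81 in the males, or -1.26 and -0.40. Its further probe, which the AAI-treated female pool alone had above background, gave 0.11 as a bound in females, and the ratio of Ifi44 in females was -0.57 with probes averaged and -0.79 with normexp background correction, short of 2-fold. Xaf1, which binds the apoptosis inhibitor XIAP, had -0.84 and -0.52.

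**Figure D3:**
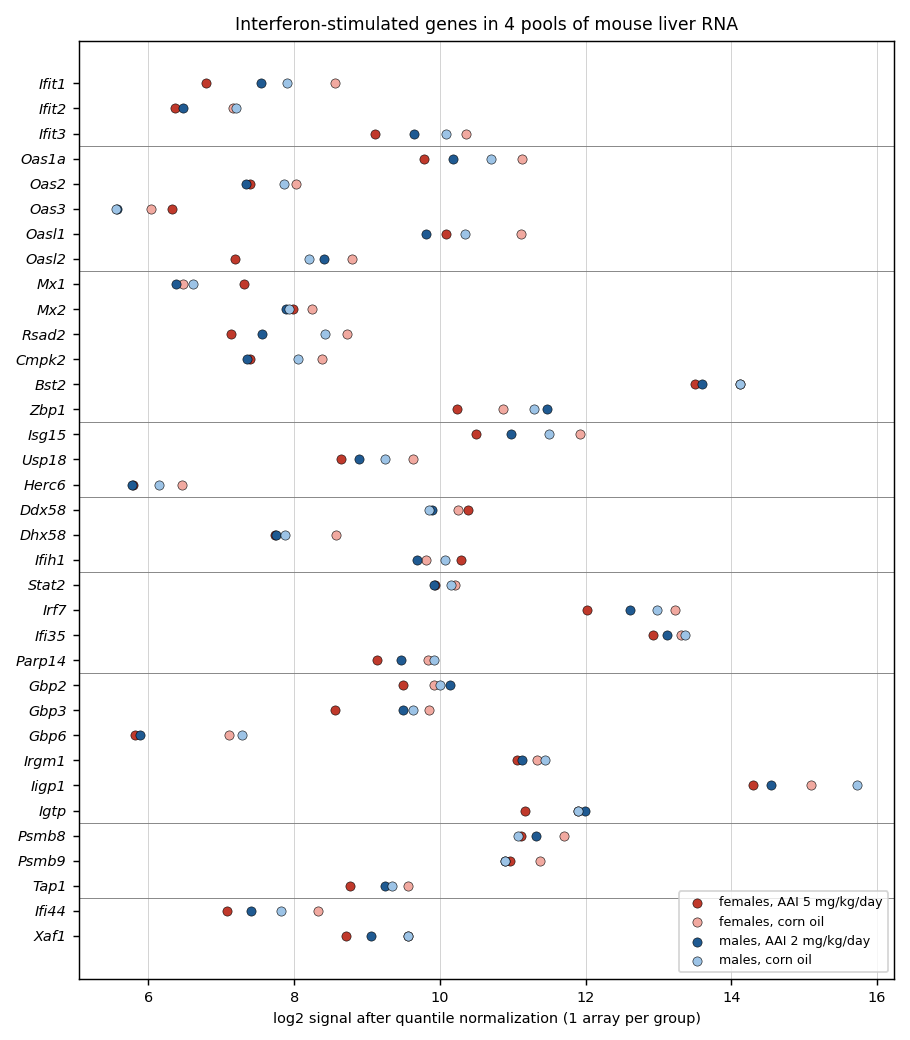
Log2 signal after quantile normalization (x axis) of the brightest probe of each of the 35 genes (y axis, grouped by role between the grey lines) in the 4 pools, 1 point per array. The pool of AAI-treated females is the lowest of the 4 for 23 genes and the pool of corn oil-treated females the highest for 21.

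By role, the median log2 ratios in females and males were -1.24 and -0.43 for the IFIT proteins, -1.04 and -0.52 for the OAS family, and -0.99 and -0.37 for ISG15 conjugation. For the pair Ifi44 and Xaf1 they were -1.05 and -0.46. They were -0.76 and -0.23 for the guanylate-binding proteins and IRG GTPases, -0.62 and -0.38 for the other antiviral effectors, -0.60 and 0.01 for antigen processing and -0.54 and -0.31 for signalling and transcription. The RNA sensors had 0.14 and -0.12. The group medians in females thus ran from the IFIT proteins, the lowest, to the RNA sensors, the highest.

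**Figure D4:**
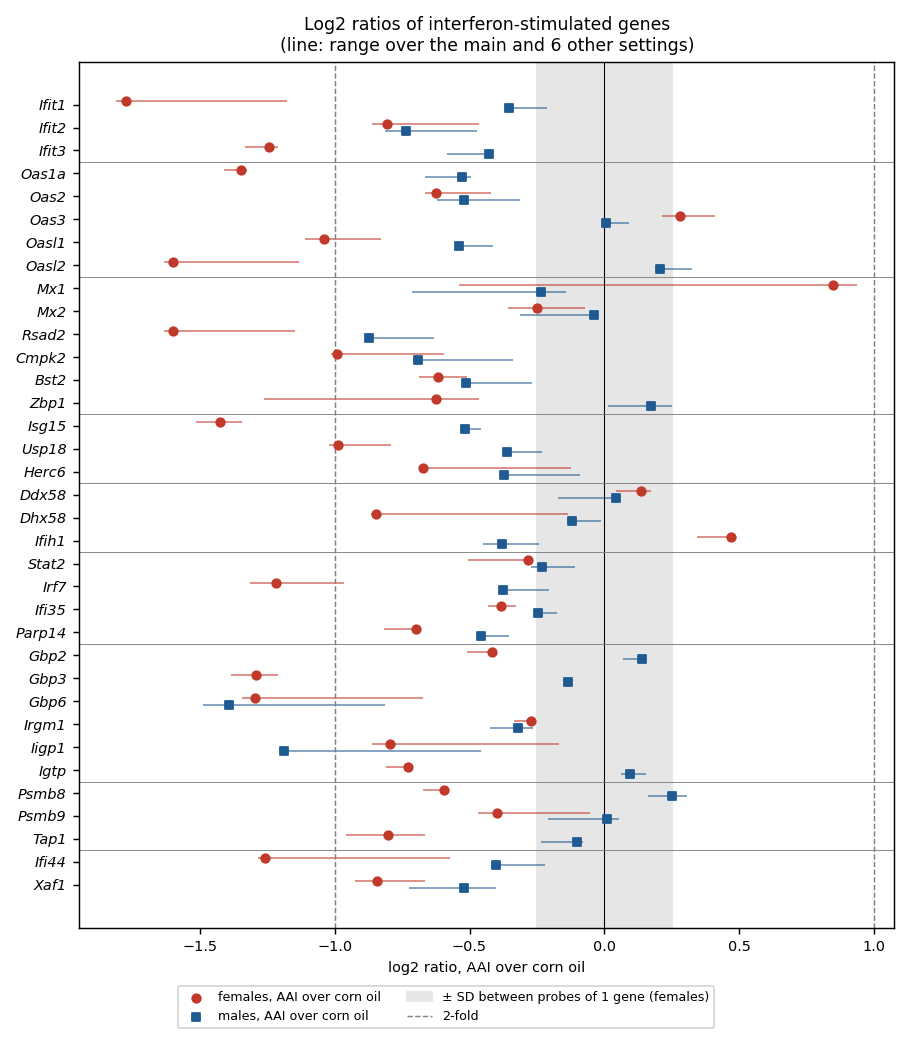
Log2 ratio of AAI over corn oil (x axis) for each of the 35 genes (y axis, grouped by role) in females (circles) and males (squares); horizontal lines span the values under the main and 6 other settings of normalization and probe choice, the grey band is the SD between probes of 1 gene in females, and dashed lines mark 2-fold. In females 11 genes lie beyond the left dashed line and none beyond the right, in males 2 and none, and the line of Mx1 in females crosses 0.

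AAI-treated females were the lowest of the 4 groups for 23 of the 35 members, against 26.9% of all genes above background on the 4 arrays. Corn oil-treated females were the highest for 21 members, against 20.1%, and the lowest for 0. In 25 members the ratio was below 0 in both sexes, against 26.4%. The female ratio was below the male ratio in 28 of 35 members (80.0%), against 48.8%, with a median difference of -0.41. No test of this difference was possible. Across the 35 members the ratios of the 2 sexes had a Pearson r of 0.33 and a Spearman rho of 0.43, against 0.32 and 0.23 over all genes. Genes of 1 array pair are not independent, and all 4 arrays share 1 normalization.

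Between the control groups, 0 of 35 members differed by 2-fold, against 1.86% of all genes lower and 3.83% higher in males. The median of corn oil-treated males over females was -0.25. Oasl1 was at the lower end with -0.77 and Iigp1 at the upper end with 0.63. Males were below females in 23 members (52.5% of all genes). They were lower by more than the SD between probes in 18 members (27.5% of all genes) and higher in 3 (25.3%), Iigp1, Zbp1 and Ifih1. Over the 11 members at least 2-fold lower with AAI in females, the log2 ratio of control males over control females ran from -0.77 (Oasl1) to 0.17 (Gbp6). Both comparisons subtract the same array of corn oil-treated females.

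Where the array held a further probe that was above background on both arrays, it had the sign of the brightest probe in 15 of 18 cases in females and in 10 of 16 in males. Where the brightest probe's ratio was beyond the SD between probes, the counts were 13 of 15 and 8 of 9. Ifit, Oas, Gbp and interferon alpha genes have close paralogs, and signal from these on the probes was not tested.

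As a list, the interferons themselves did not share the low median ratio of the members. Their probes were dimmer, so a change in a ligand near background could be missed. Log2 signals in corn oil-treated females ran from 2.17 (Ifne) to 9.12 (Ifnl3), against 6.04 (Oas3) to 15.09 (Iigp1) for the members. Of 16 ligand genes measured, 14 could be compared in each sex. In females 0 were at least 2-fold lower (3.09% of all genes) or higher (1.37%), and their median was 0.14. In males 0 were at least 2-fold lower (4.59% of all genes) and 1 higher (3.51%), with a median of -0.05. The 1 higher was Ifne, at least 9.14-fold, its probe being above background only in AAI-treated males. With normexp the bound for Ifne was lower, 1.47 on the log2 scale against 3.19. Ifng, encoding interferon gamma, had log2 signals of 5.89 in AAI-treated and 5.75 in corn oil-treated females, and of 5.78 and 6.34 in the males, or 0.14 and -0.56. Ifnb1, encoding interferon beta, was well above background only in AAI-treated females, which gives a ratio of at least 0.50.

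Of the 13 genes of receptors and JAK-STAT signalling, 0 were at least 2-fold lower in either sex, and 1 was higher in both. This was Socs3, a feedback inhibitor of cytokine signalling, at 1.07 in females and 1.20 in males, with values down to 0.92 and 0.95 under other settings. For the receptor chains, the female and male ratios were 0.13 and 0.36 (Ifnar1) and -0.24 and -0.11 (Ifnar2). Ratios in females were -0.31 for Ifngr1 and -0.12 for Ifngr2, against -0.26 and -0.10 in males. Irf9, an ISGF3 subunit that is itself inducible, had -0.77 in females and -0.21 in males. Of 16 genes that act in the induction of interferon, Irf8 (-1.11), a factor of myeloid and dendritic cells, and Trim25 (-1.04), the ligase that activates RIG-I, were lower in females and Ikbke (1.04), a kinase of IRF3, was higher. The shares of all genes were 3.09% lower and 1.37% higher. None of these calls held under all settings, with values as near to 0 as -0.54 for Irf8, -0.93 for Trim25 and 0.41 for Ikbke. In males their ratios were -0.08, -0.60 and -0.06, and 0 of the 16 were beyond 2-fold.

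A further list of interferon-stimulated genes was written from general knowledge without the 35 members. Earlier results of these data were known then, so its genes are no independent check on the members. In females 9 of the 40 that entered the comparison were at least 2-fold lower (3.09% of all genes) and 0 higher (1.37%), with a median of -0.61. In males 1 of 39 was lower (4.59% of all genes) and 0 higher (3.51%), with a median of -0.28. Cxcl10, a chemokine for T cells, had the lowest ratio of the list. Its log2 signals were 6.68 in AAI-treated and 8.60 in corn oil-treated females, and 7.80 and 9.10 in the males, so that both treated groups were below both control groups. The ratios were -1.91 and -1.30, and Cxcl10 was the member of this list that passed 2-fold in males. The related Cxcl9 had -1.14 and -0.87. The others beyond 2-fold in females were Ifi27l2a (-1.70), Rtp4 (-1.47), the RNA-editing enzyme gene Adar (-1.35), Slfn2 (-1.34), Trim30a (-1.11), Gbp8 (-1.04) and Gbp11 (-1.02). Of the 9, only Cxcl10, Cxcl9 and Rtp4 stayed beyond 2-fold under the 6 other settings of normalization and probe choice, and Ifi27l2a and Trim30a came as near to 0 as -0.95 and -0.47. Ifi27l2a was opposite in males, at 0.98. The genes of MHC class I presentation had medians near 0, -0.01 in females and -0.03 in males, with 0 of 9 beyond 2-fold in either sex.

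**Figure D5:**
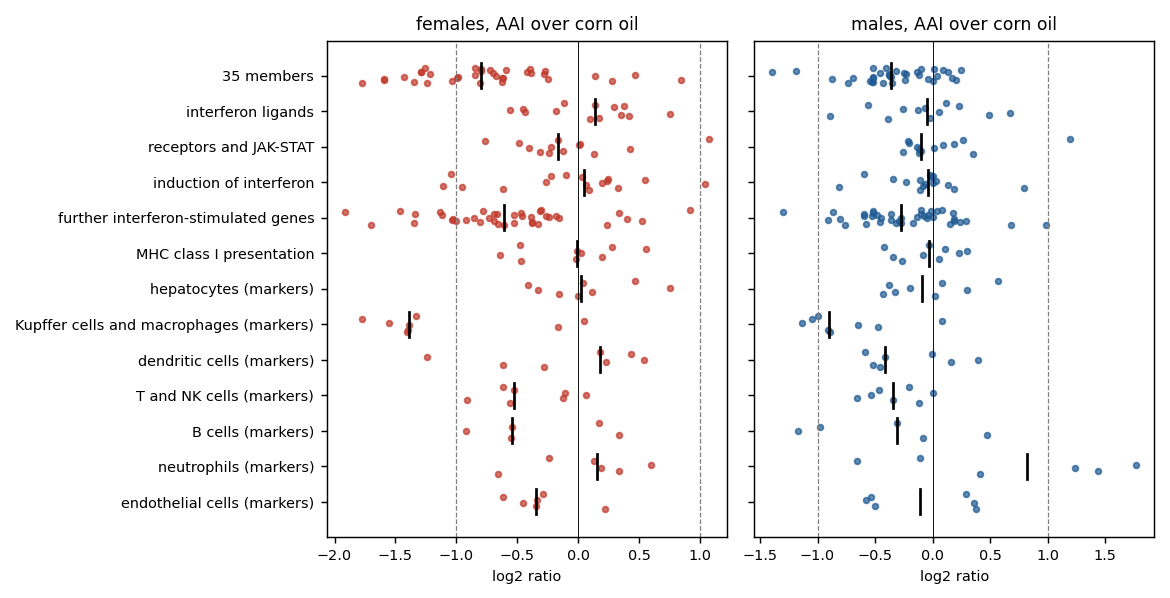
Log2 ratio of AAI over corn oil (x axis) for single genes (points) and the median (black bar) of the 35 members, 5 other lists of the interferon pathway and 7 lists of cell type markers (y axis), in females (left) and males (right), for genes above background on both arrays; dashed lines mark 2-fold. In females the members, the further interferon-stimulated genes and the Kupffer cell markers have medians of -0.80, -0.61 and -1.39, and the ligands and MHC class I genes have 0.14 and -0.01.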

How the data were processed

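RNA of 5 mice per group was pooled, labelled with Cy3 and hybridized to 1 Agilent mouse 60-mer array per group. The authors deposited scanner files with the intensity of each spot, quantified with Feature Extraction 10.5.1.1 and not normalized between arrays, quality marks, and a table of raw and quantile-normalized intensity. The array design is annotated on mm9, and probe coordinates are those of the files; exons and UTRs were not assigned, as no annotation of that build was used here.

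Log2 processed intensity was quantile normalized over the 56495 probes measured on each of the arrays, without control spots and outlier-marked spots. The brightest probe by mean log2 signal stands for a gene. Medians of ratios are over genes well above background on both arrays. A gene entered a comparison where 1 or both of its arrays had the probe well above background, and a ratio is a bound where it was not on the other, against the higher of the lowest signal well above background there and the probe's own. Between 74.7% and 81.5% of probes were well above background per array, and 0 spots were saturated. The number of arrays, 1 per group, limits the precision, and no p-value is given. Alternatives were the 75th percentile scale, normexp background correction (limma 3.58.1, offset 50), signals without the multiplicative trend correction, the authors' normalized intensities, replaced spots left out, probes averaged, no filter on dim probes and thresholds of 1.5-fold and 3-fold. Calculations used Python 3.11.15 and R 4.3.3 and were tested on simulated data.

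Every one of the 35 members is named. Of the other pathway lists, genes beyond 2-fold are named, with Irf9, Ifnar1, Ifnar2, Ifngr1, Ifngr2, Ifnb1 and Ifng whatever their values (1 further gene of this rule is not reported here), and promoters are shown for members with an ISRE core and low or high ratios. Members and lists were chosen with earlier results of these data known.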

Additional observations from a re-analysis of the deposited data

Results flagged for a closer look

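A few genes of the interferon pathway had log2 ratios of AAI over corn oil in opposite directions in the sexes. Each was beyond the SD between probes in the main setting. The difference between the sexes was not tested, since each group is 1 array, and sex and dose cannot be told apart. Female minus male differences were 0.85 for Ifih1 (0.47 in females and -0.38 in males), -0.85 for Psmb8 (-0.60 and 0.25), 1.31 for Ifna4 (0.42 and -0.89), -2.68 for Ifi27l2a (-1.70 and 0.98) and 0.70 for Erap1 (0.28 and -0.42). Under other settings some values came within that SD, with 0.16 for Psmb8 in males and 0.18 for Ifna4 and 0.12 for Erap1 in females. Ifi27l2a in males came down to 0.34, and the further probe of Ifih1 had -0.10 in males. Ifna4 and Erap1 were named after their values were seen.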

How the results depend on the processing

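In females, the count of 11 members at least 2-fold lower was 11 on the 75th percentile scale, with replaced spots left out and with no filter on dim probes, 10 without the trend correction (without Oasl1), 10 with probes averaged (without Ifi44 and Irf7, and with Zbp1), 8 with normexp (without Gbp6, Ifi44 and Oasl1) and 13 with the authors' normalized intensities (with Cmpk2 and Usp18). It was 25 at 1.5-fold and 3 at 3-fold, and the count higher was 1 at 1.5-fold. In males, the count of 2 lower was 1 on the 75th percentile scale and with probes averaged (without Iigp1 in both) and 1 with normexp (without Gbp6), 5 at 1.5-fold and 0 at 3-fold. In control males over control females, 5 members were lower and 1 higher at 1.5-fold. The cause of these shifts was not tested, apart from the thresholds. The median over the 35 members moved by less than the SD between probes under each setting run, and no called member reversed. The median of Ifi44 and Xaf1 in females went from -1.05 to -0.73 with normexp and -0.75 with probes averaged, and that of the RNA sensors in control males over females from -0.40 to -0.08 with probes averaged. Of 210 values of members under alternatives, 18 moved by more than that SD in females and 9 in males. The sign changed for Mx1 in females and for Ddx58 and Psmb9 in males. Over all genes, the 75th percentile scale gave 742 lower and 623 higher in females (54.4% lower, against 69.3% of 978 and 434), and normexp gave 341 and 139. In males normexp gave 637 and 539 against 1402 and 1071. In control males over females it gave 222 and 471 against 574 and 1184. No paired analysis was possible because each group has 1 array.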
